A study of Mus musculus with 15 samples.

Results

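The genes described here are the 4 signalling receptors for fibroblast growth factors, Fgfr1, Fgfr2, Fgfr3 and Fgfr4, and the 2 ligands Fgf1 and Fgf2, in cultured lymphatic endothelial cells (LECs) of mouse lymph nodes. They were taken by gene name from a table of 45706 genes, which held all 6. RNA was sequenced from 5 libraries of unstimulated LECs, 5 of LECs given 10 ng/mL of VEGF-C and 5 of LECs given 100 ng/mL, each after 72 h. VEGF-C, here a purified recombinant murine protein made in HEK-293E cells, is the growth factor that drives lymphatic growth through the receptor Flt4. All groups were Pdpn+ CD31+ CD45- cells of female C57Bl/6 mice, from axillary, brachial, cervical, inguinal and popliteal nodes that had been pooled, and all were kept in a serum-containing medium. The age of the mice and the number of isolations behind the libraries were not stated.

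Fibroblast growth factors bind receptor tyrosine kinases on the cell surface together with heparan sulfate chains, which hold the ligand and the receptor in 1 complex. The receptors signal through the adaptor Frs2 to the Ras and ERK pathway, to PI3K and to phospholipase C gamma, and the pathway induces its own inhibitors, among them the Sprouty, Spred and Dusp proteins. Fgf1 and Fgf2 lack a classical signal peptide and leave the cell by other routes. In lymphatic endothelium, receptor signalling by this family is known to promote proliferation and migration and to sustain glycolysis through Myc and hexokinase 2.

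The start regions of 4 of these genes, Fgfr2, Fgfr3, Fgfr4 and Fgf2, were available as RefSeq windows on GRCm38.p6. Fgfr1 had no window among them. The parts shown are those outside the annotated exons of each gene, which left nothing to show for Fgf2. Each is written 5′ to 3′ on the strand of the gene, and capitals mark the GC box GGGCGG or its reverse complement CCGCCC. The Fgfr4 stretch is chr13:55152568-55152639 (plus strand), the first and second Fgfr3 stretches are chr5:33721474-33721673 and chr5:33722056-33722305 (plus strand), and the Fgfr2 stretch is chr7:130266809-130267058 (minus strand).
Fgfr4: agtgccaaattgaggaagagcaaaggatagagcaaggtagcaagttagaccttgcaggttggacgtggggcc
Fgfr3 first start: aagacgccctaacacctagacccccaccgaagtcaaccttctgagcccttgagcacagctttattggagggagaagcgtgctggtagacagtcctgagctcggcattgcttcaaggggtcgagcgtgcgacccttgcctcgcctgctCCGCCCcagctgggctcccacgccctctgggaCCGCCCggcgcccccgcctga
Fgfr3 second start: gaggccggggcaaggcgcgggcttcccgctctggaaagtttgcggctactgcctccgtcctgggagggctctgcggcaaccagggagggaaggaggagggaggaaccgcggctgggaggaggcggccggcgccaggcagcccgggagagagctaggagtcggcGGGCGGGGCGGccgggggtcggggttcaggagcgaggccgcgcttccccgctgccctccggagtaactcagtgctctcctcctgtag
Fgfr2: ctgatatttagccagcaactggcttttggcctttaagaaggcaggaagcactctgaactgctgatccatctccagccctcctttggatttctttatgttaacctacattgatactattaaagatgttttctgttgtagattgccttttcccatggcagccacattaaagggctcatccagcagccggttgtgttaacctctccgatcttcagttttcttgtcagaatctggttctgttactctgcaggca

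Base composition differed among these windows. All 250 bases of the Fgf2 window and 178 of the Fgfr4 window lie in annotated exons of the gene itself. The bases just after the listed Fgfr2 start were not found near the beginning of any GENCODE transcript of that gene. The windows are therefore not alike in what they cover, and any relation to the changes with VEGF-C was not tested. Over the full 250 bases before the listed start, GC content was 44.0% for Fgfr2, 64.0% for Fgfr4, 66.8% and 72.8% for the first and second starts of Fgfr3 and 62.4% for Fgf2, against a median of 52.4% over 32817 such windows of all genes. The Fgfr2 window held 2 CpG dinucleotides, and the others held 15 to 24. An exact search of both strands found the GC box 2 times before Fgfr4, 3 times before the first and 2 times (overlapping each other) before the second Fgfr3 start, and 1 time before Fgf2, partly outside the stretches shown. It was not in the Fgfr2 window, and 32.7% of all windows held it. The ETS core CCGGAA was found in the Fgfr4 window alone of the 5 and in 12.0% of all windows. The TATA box TATAAA was found in none of the 5 and in 12.4% of all windows. The AP-1 site TGACTCA was likewise in none of them, against 4.46% of all windows, and the forkhead site TGTTTAC in none, against 3.16%. The listed Fgfr2 start lies 545 bases upstream of the nearest GENCODE start of that gene, and the listed Fgfr4 start lies 178 bases downstream of its own.

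Fgfr1 (ENSMUSG00000031565) lies on chromosome 8 at 25513654 to 25575718, plus strand, in the GENCODE M21 annotation of GRCm38. Fgfr2 (ENSMUSG00000030849) is annotated on chromosome 7 at 130162451 to 133123350, minus strand, a span set by 1 long transcript that shares 314 exonic bases with Ctbp2 on the same strand. Fgfr3 (ENSMUSG00000054252) lies on chromosome 5 at 33721674 to 33737068 and Fgfr4 (ENSMUSG00000005320) on chromosome 13 at 55152640 to 55168759, both on the plus strand. Fgf1 (ENSMUSG00000036585) lies on chromosome 18 at 38838673 to 38929472, minus strand. Fgf2 (ENSMUSG00000037225) lies on chromosome 3 at 37348346 to 37410108, plus strand, and shares 640 exonic bases with the opposite-strand gene Nudt6. All 6 are annotated as protein-coding.

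Library depth was 27784906 to 38590841 estimated counts. Of 45706 genes, 17650 passed a filter on low counts, all 6 FGF genes among them. Abundance is given as CPM (each count relative to its library total, adjusted by TMM factors) where a gene is compared between groups, and as RPKM (reads scaled by gene length and library total, as deposited) where genes are compared with each other. On the first principal component of log2 CPM, library B at 100 ng/mL scored 38.8 and the other 4 libraries of that dose 69.8 to 78.5. Together with unstimulated E and library D at 10 ng/mL it had the lowest scores on the second component, and these are the 3 libraries that stood apart. Of the LEC markers, Flt4 and Cdh5 measured 614.9 and 2162 CPM in unstimulated cells, whereas Ccl21a and Mmrn1, which mark LECs in tissue, averaged at most 0.0454 CPM in any group. Markers of fibroblasts and mural cells were also present, with a summed abundance of 3192 to 4669 CPM per unstimulated library.

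Fgfr1 was the most abundant of the 6 genes at every dose on the RPKM scale, followed by Fgfr4, Fgfr3, Fgf2, Fgf1 and Fgfr2. Fgfr1 averaged 9.26 ± 0.539 RPKM in unstimulated, 8.73 ± 0.880 in 10 ng/mL and 17.9 ± 3.53 in 100 ng/mL cells (SD, n = 5 each), above 75.2%, 74.4% and 88.1% of the 13721 protein-coding genes tested. Fgfr4, the receptor that in liver answers bile acid-linked FGF signals, averaged 1.30, 1.21 and 2.32 RPKM over the same doses. Fgfr3 averaged 0.821, 0.859 and 1.04 RPKM.

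The ligands and Fgfr2 lay at the low end of this order. Fgf2 averaged 0.761, 0.726 and 0.304 RPKM at 0, 10 and 100 ng/mL, and Fgf1 averaged 0.294, 0.267 and 0.273 RPKM. Fgfr2, the receptor of keratinocyte growth factor in epithelia in its IIIb form, averaged 0.207, 0.155 and 0.0572 RPKM. Between neighbours in the order, the ranges of Fgfr3 and Fgf2 and those of Fgf1 and Fgfr2 overlapped in unstimulated and in 10 ng/mL cells, and those of Fgf2 and Fgf1 overlapped at 100 ng/mL. All other neighbours were apart in all 5 libraries of their group.

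**Figure D1:**
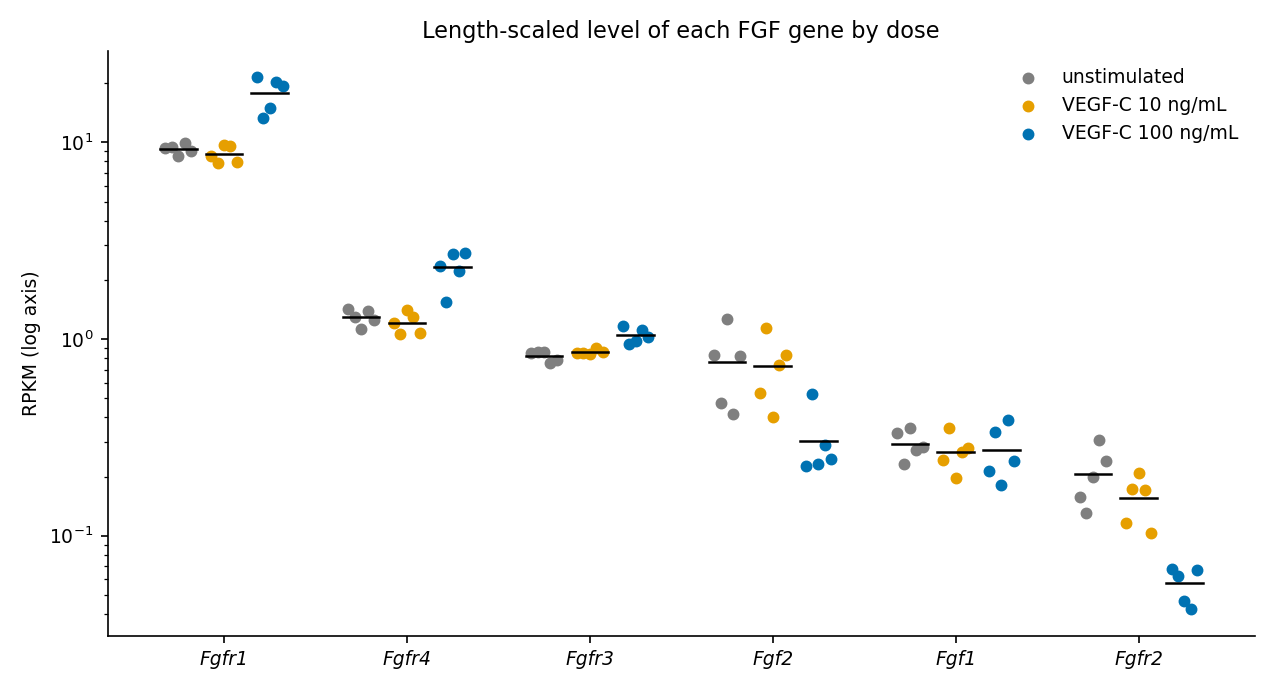
Deposited RPKM (log axis) of the 6 FGF genes, with 1 point per library, colours for the doses of VEGF-C and a bar at the mean of 5 libraries. Fgfr1 lies above the other genes at every dose, with means of 9.26, 8.73 and 17.9 RPKM, and Fgfr2 lies lowest, with 0.0572 RPKM at 100 ng/mL.

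Summed over the 4 receptors, the level was 21.3 ± 3.84 RPKM in 100 ng/mL cells and 11.6 ± 0.643 RPKM in unstimulated cells (SD, n = 5 each). Fgfr1 made up 83.7 ± 2.36% of the sum in 100 ng/mL cells and 79.9 ± 0.430% in unstimulated cells. The share of Fgfr2 was 0.276 ± 0.0779% at 100 ng/mL and 1.78 ± 0.562% in unstimulated cells. These receptor shares did not overlap for Fgfr2, and for Fgfr1 library C of the 100 ng/mL group, at 79.9%, lay within the unstimulated range of 79.4 to 80.45%. Fgfr3 made up 4.99 ± 0.609% at 100 ng/mL and 7.11 ± 0.707% in unstimulated cells, and the share of Fgfr4 averaged 11.0% at 100 ng/mL and 11.2% in unstimulated cells. At 10 ng/mL the sum was 11.0 ± 1.06 RPKM and the share of Fgfr1 was 79.7%.

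Which FGF genes differed after 72 h at the higher dose was asked by setting 100 ng/mL against unstimulated cells. Fgfr1, Fgfr3 and Fgfr4 rose, Fgfr2 and Fgf2 fell, and Fgf1 did not pass the test. These are 5 of 6 genes past an adjusted p of 0.05 in edgeR's quasi-likelihood test, beside 42.9% of all 17650 genes tested, 21.4% higher and 21.5% lower, so that calls in either direction were common in this comparison. The libraries of the 2 groups did not overlap for the 4 receptors, and this held for 27.2% of all genes tested. Fewer cells of a type and less RNA per cell cannot be told apart in these bulk samples.

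Fgfr1, the main receptor of this family in endothelium, measured 327.9, 202.5, 227.5, 308.3 and 290.1 CPM in libraries A to E of the 100 ng/mL group and 136.9, 141.2, 126.9, 149.9 and 129.9 CPM in unstimulated libraries A to E. Every 100 ng/mL library lay above every unstimulated one, with B the lowest of the treated libraries. The means were 271.3 ± 53.8 CPM at 100 ng/mL and 136.9 ± 9.16 CPM in unstimulated cells (SD, n = 5 each), a log2 fold change of 0.99 ± 0.12 (SE, edgeR adjusted p = 9.97e-06) with a 95% interval of 0.73 to 1.24. Of all genes tested, 13.1% had a log2 fold change at least as large in size.

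Fgfr4 measured 16.1, 10.52, 18.5, 15.2 and 18.3 CPM in 100 ng/mL libraries A to E, against 9.28, 8.69, 7.54, 9.37 and 8.05 CPM in unstimulated libraries A to E. Library B was again the lowest of the treated libraries and lay closest to the unstimulated range. The log2 fold change was 0.87 ± 0.14 (edgeR adjusted p = 0.000111), and it was 0.97 without the 3 libraries that stood apart. Fgfr3, which is known in human LECs as a target of the lymphatic transcription factor PROX1, measured 13.8, 11.1, 11.6, 13.1 and 11.9 CPM in 100 ng/mL libraries and 9.60, 10.0, 9.89, 8.75 and 8.75 CPM in unstimulated libraries. Its groups were apart, but the difference was the smallest of the 5 that passed, with a log2 fold change of 0.39 ± 0.07 (edgeR adjusted p = 0.000299) that 33.2% of all genes tested matched in size. In Fgfr3, 998 exonic bases lie opposite the transcript G630022F23Rik, which averaged at most 0.0353 CPM in any group.

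Fgfr2 measured 0.903, 0.835, 0.622, 0.547 and 0.882 CPM in 100 ng/mL libraries A to E, from 15.4 to 30.6 estimated counts per library. It measured 1.98, 1.70, 2.57, 4.02 and 3.04 CPM in unstimulated libraries A to E, from 57.0 to 130.1 estimated counts. The treated libraries lay within a narrow low range and the unstimulated ones spread widely above it, with D the highest. The log2 fold change was -1.80 ± 0.26 (edgeR adjusted p = 6.44e-05, 95% interval -2.36 to -1.24), and 5.5% of all genes tested had one at least as large in size. Ctbp2, which shares exonic bases with Fgfr2, measured 77.5 CPM at 100 ng/mL and 77.3 CPM in unstimulated cells (edgeR adjusted p = 0.974).

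Fgf2, the ligand also called basic FGF, measured 2.59, 5.88, 2.62, 3.28 and 2.73 CPM in 100 ng/mL libraries A to E. In unstimulated libraries A to E it measured 8.97, 5.22, 13.9, 4.64 and 8.70 CPM. The groups overlapped, because library B at 100 ng/mL lay above unstimulated B and D, while the other 4 treated libraries lay below every unstimulated one. The means were 3.42 ± 1.40 CPM at 100 ng/mL and 8.28 ± 3.70 CPM in unstimulated cells (SD, n = 5 each), with a log2 fold change of -1.28 ± 0.35 (edgeR adjusted p = 0.00757), and of -1.55 (edgeR adjusted p = 0.00552) without the 3 libraries that stood apart. Nudt6, the opposite-strand neighbour, measured 0.795 CPM at 100 ng/mL and 0.859 CPM in unstimulated cells (edgeR adjusted p = 0.643), and it was not stated whether the counting used strand.

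Fgf1, the ligand that binds all receptors of the family, measured 1.90, 2.97, 1.61, 3.47 and 2.11 CPM in 100 ng/mL libraries and 2.83, 2.03, 3.07, 2.38 and 2.38 CPM in unstimulated libraries. The groups overlapped throughout. Its log2 fold change was -0.08 ± 0.20 (edgeR adjusted p = 0.786) with a 95% interval of -0.52 to 0.36, or 0.699 to 1.28 on the linear scale of the fold change. The RPKM ratio of Fgf2 to Fgf1 was 1.13 ± 0.303 at 100 ng/mL and 2.51 ± 0.782 in unstimulated cells (SD, n = 5 each).

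**Figure D2:**
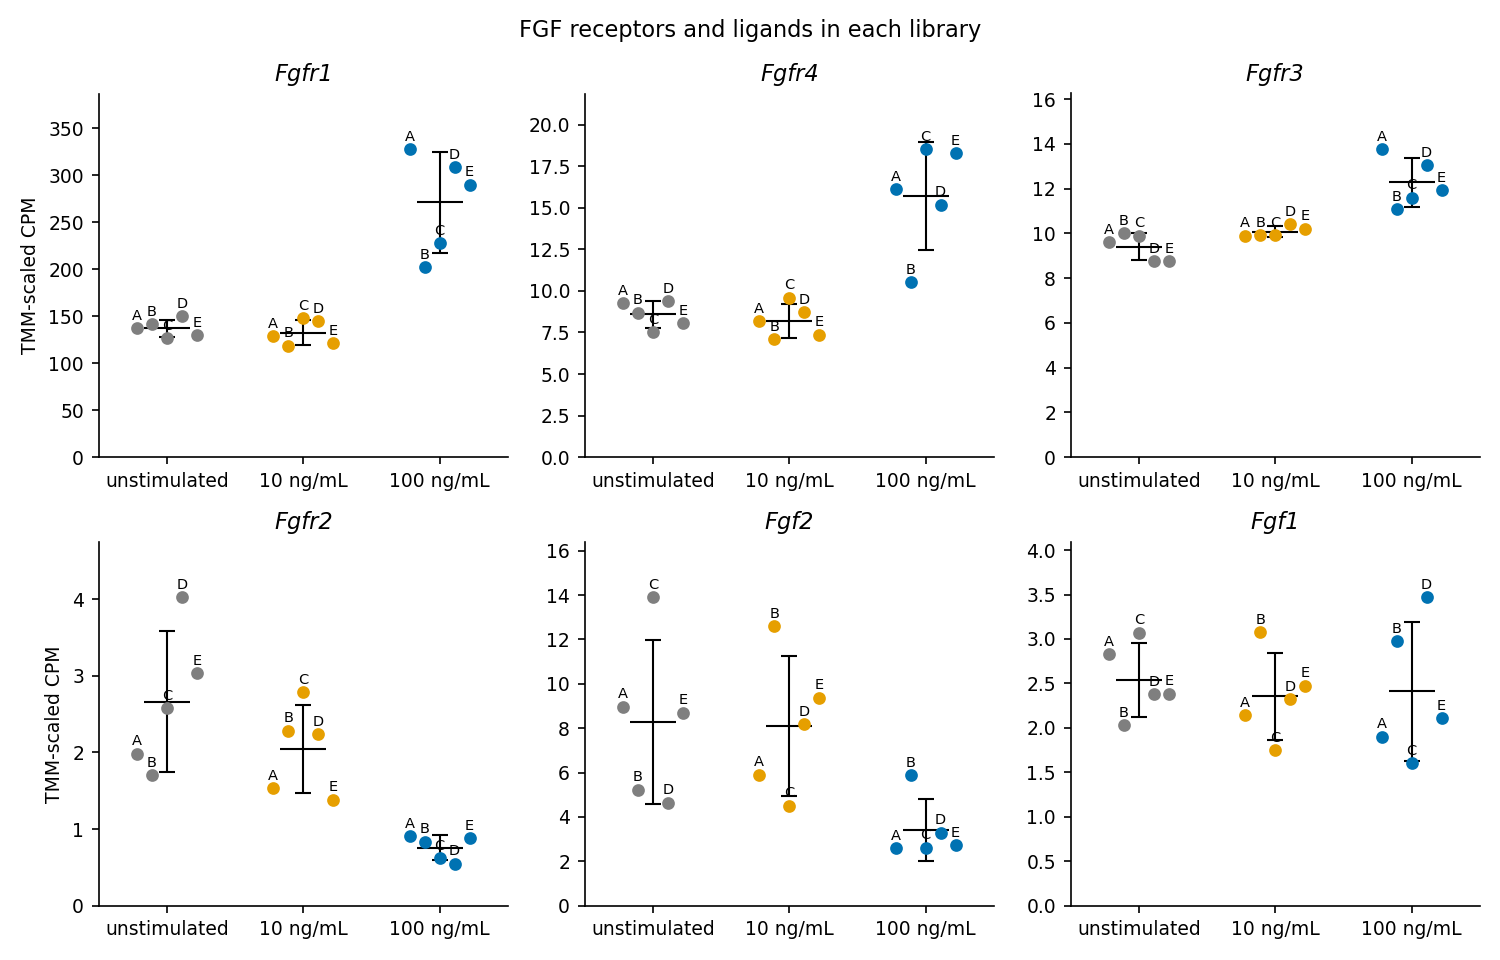
TMM-scaled CPM of each FGF gene in the 15 libraries, with 1 panel per gene, letters for the libraries and bars for the mean ± SD of 5 libraries. Fgfr1, Fgfr4 and Fgfr3 are higher in all 100 ng/mL libraries than in unstimulated ones, Fgfr2 is lower in all 5, and for Fgf2 library B of the 100 ng/mL group lies at 5.88 CPM, inside the unstimulated range.

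Whether the lower dose changed the same genes was asked by setting 10 ng/mL against unstimulated cells. None of the 6 FGF genes passed the test, beside 0.0% of all genes called by edgeR. The fit did not pair libraries, although some unstimulated and 10 ng/mL libraries of different letters deviated together (correlations up to 0.786). What such pairing would change in this comparison was not tested. The 2 groups overlapped for all 6 genes, while they did not for 1.31% of all genes tested. In this comparison 844 genes had an unadjusted p under 0.05, 10 were called by the DESeq2 Wald test and 0 by limma-voom. Fgfr1 measured 129.0, 118.6, 147.7, 144.6 and 121.3 CPM in 10 ng/mL libraries A to E, with a mean of 132.2 ± 13.3 CPM, against 136.9 CPM in unstimulated cells. Its log2 fold change was -0.05 ± 0.12 with a 95% interval of -0.30 to 0.20.

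The other genes at 10 ng/mL also overlapped with the unstimulated libraries. Fgfr2 measured 1.53, 2.28, 2.78, 2.24 and 1.38 CPM in libraries A to E and had the largest of the 6 log2 fold changes in size, at -0.38 ± 0.24 (edgeR adjusted p = 0.969, 95% interval -0.88 to 0.13). Fgfr4 lay between 7.09 and 9.59 CPM and Fgfr3 between 9.89 and 10.42 CPM, with log2 fold changes of -0.07 and 0.10. Fgf2 lay between 4.51 and 12.6 CPM and Fgf1 between 1.75 and 3.08 CPM, with log2 fold changes of -0.03 and -0.11. For Fgf2 the 95% interval ran from -0.74 to 0.67, the widest of the 6. Adjusted p-values of the 6 genes in edgeR were 0.969 to 0.996.

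In the comparison of 100 ng/mL with 10 ng/mL cells, the same 5 genes passed the test, beside 40.5% of all genes tested, 19.9% higher and 20.6% lower. The groups did not overlap for the 4 receptors, beside 25.6% of all genes tested, and they overlapped for Fgf2 and Fgf1. Fgfr1 was higher at 100 ng/mL, at 271.3 CPM against 132.2 CPM at 10 ng/mL, by a log2 fold change of 1.04 ± 0.12 (edgeR adjusted p = 7.18e-06). Fgfr4 had a log2 fold change of 0.94 (adjusted p = 6.42e-05) and Fgfr3 one of 0.29 (adjusted p = 0.00327). Fgfr2 fell by 1.42 on the log2 scale (adjusted p = 0.000587) and Fgf2 by 1.25 (adjusted p = 0.0097), while Fgf1 had a log2 fold change of 0.03 (adjusted p = 0.922). This comparison and the one with unstimulated cells share the 100 ng/mL libraries.

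The genes of the table whose abundance pattern was nearest to that of each FGF gene were found among 11835 named protein-coding genes, by the root mean square difference of centred log2 CPM over the 15 libraries. Fgfr1 was nearest to Icam2, an endothelial adhesion molecule (0.069), then Sipa1 and Atox1, beside a median difference of 0.527 over all genes compared. That median differed by FGF gene, from 0.259 for Fgfr3 to 0.837 for Fgfr2, so the distances are not on 1 footing between them. Fgfr4 was nearest to Tie1, an endothelial receptor tyrosine kinase (0.062), then to Ramp2, a subunit of the adrenomedullin receptor, and Sgsm3. Fgfr3 was nearest to Atp6v0a2, a proton pump subunit (0.058), then Wasf2 and Usp10. Fgf2 was nearest to Vegfa (0.179), then to Pfkfb4, a regulator of glycolysis, and Apbb1ip. Fgfr2 was nearest to the Wnt receptor gene Fzd1 (0.226), then Hrct1 and the collagen gene Col5a2, and Fgf1 was nearest to Pycr1 (0.146), then Nradd and Apex1.

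Other ligands of the family were few and low. Of 13 other paracrine FGF genes only Fgf7 and Fgf16 passed the filter on low counts. Both fell at 100 ng/mL against unstimulated cells, beside 21.5% of all genes tested that fell. Fgf7, the keratinocyte growth factor of mesenchymal cells and a ligand of Fgfr2, averaged 1.45 ± 1.33 CPM at 100 ng/mL and 8.87 ± 5.35 CPM in unstimulated cells (SD, n = 5 each), with a log2 fold change of -2.62 ± 0.63 (edgeR adjusted p = 0.00366). Fgf16 fell by 1.36 on the log2 scale (adjusted p = 0.0102), and Fgf23, the endocrine ligand best known from bone, fell by 2.84 (adjusted p = 0.0103). Levels of Fgf23 were low and spread widely, from 0.0730 to 1.74 CPM at 100 ng/mL and from 0.742 to 6.77 CPM in unstimulated libraries. Fgf16 was low too, at 0.280 to 1.37 CPM in the 100 ng/mL libraries. Genes this low pass the filter largely through the groups where they are higher, so a fall was favoured in advance.

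As for Fgf2, library B was the highest 100 ng/mL library for Fgf7 (3.74 CPM), Fgf16 (1.37 CPM) and Fgf23 (1.74 CPM). Without it the log2 fold changes were -3.33 for Fgf7, -1.99 for Fgf16 and -4.75 for Fgf23. Against 10 ng/mL cells Fgf7 fell by 2.48 and Fgf23 fell by 2.90 on the log2 scale (edgeR adjusted p = 0.00578 and 0.01), and without library B the log2 fold changes were -3.19 and -4.81. In the same comparison Fgf16 fell by 1.07 (adjusted p = 0.0409), a call that was lost without any 1 of 8 libraries, which were 10 ng/mL A, D and E, 100 ng/mL A, C, D and E and unstimulated B (adjusted p = 0.0506 to 0.0973), with no filter, with a fit of only the 10 libraries compared and with limma on log2(RPKM + 1). Among the intracellular homologous factors, which do not act on the receptors, Fgf11 fell by 1.85 (adjusted p = 5.52e-07) and Fgf12 rose by 1.01 (adjusted p = 0.000606) at 100 ng/mL against unstimulated cells.

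Of 11 genes for co-receptors, the decoy receptor and binding proteins, 7 were tested, and 1 rose and 4 fell at 100 ng/mL against unstimulated cells, beside 21.4% of all genes tested that rose and 21.5% that fell. Their median log2 fold change was -0.96, against 0.008 over all genes tested. Fgfrl1, a receptor of the family without a kinase domain, averaged 12.0 ± 1.502 CPM at 100 ng/mL and 31.7 ± 5.95 CPM in unstimulated cells, with a log2 fold change of -1.40 ± 0.15 (edgeR adjusted p = 3.94e-06). Ncam1, an adhesion molecule that binds Fgfr1, fell by 2.10 (adjusted p = 3.05e-05). Flrt3, a membrane protein that binds FGF receptors, rose by 0.99 (adjusted p = 0.000134). The Klotho genes Kl and Klb, co-receptors of the endocrine ligands, averaged at most 0.0508 CPM in any group and were not tested.

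The heparan sulfate genes mostly fell. Of 10 tested core proteins, 1 rose and 7 fell, beside 21.4% and 21.5% of all genes tested. Their median log2 fold change was -1.22. Syndecan genes Sdc4 and Sdc2 fell by 2.10 and 1.38 (edgeR adjusted p = 1.04e-07 and 0.000253), and the glypican genes Gpc4 and Gpc2 by 1.70 and 1.05 (adjusted p = 0.000486 and 0.00172). Sdc4 measured 28.8 to 55.7 CPM over the 100 ng/mL libraries and 140.1 to 168.3 CPM over the unstimulated ones. Of 14 enzymes that build or edit the chains, 3 rose and 8 fell, beside the same shares of all genes, with a median of -0.35. The sulfotransferase genes Hs3st1 and Hs6st2 fell by 2.07 and 2.15 (adjusted p = 1.04e-06 and 0.000184), and Sulf2, an extracellular sulfatase, fell by 0.33 (adjusted p = 0.000133). Library B was the highest 100 ng/mL library for Hs6st2, at 106.8 CPM against 28.3 to 32.1 CPM in the others. It was also the highest for Gpc4 (34.6 CPM), Sdc2 (22.5 CPM), Sdc4 and Sulf2, but not for Hs3st1 or Gpc2.

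Intracellular components went in both directions. Of 25 adaptors and components of the ERK, PI3K and phospholipase C pathways, 6 rose and 5 fell, beside 21.4% and 21.5% of all genes tested. These counts lay near the shares of all genes, and so did their median log2 fold change of 0.04. Nras rose by 0.35 (edgeR adjusted p = 5.02e-06), and Frs2, the adaptor that docks on the receptors, fell by 0.51 (adjusted p = 0.000149). Of 10 tested feedback inhibitors, 6 rose and 2 fell, beside the same shares of all genes, with a median of 0.49. Dusp6, an ERK phosphatase, averaged 258.6 ± 33.1 CPM at 100 ng/mL and 144.8 ± 6.22 CPM in unstimulated cells (SD, n = 5 each), with a log2 fold change of 0.84 ± 0.08 (edgeR adjusted p = 2.03e-06). Spred2 rose by 0.56 (adjusted p = 1.61e-05), while Dusp4, a nuclear phosphatase of the same family, fell by 0.71 (adjusted p = 3.7e-06).

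Genes that ERK signalling induces went both ways, 4 of 12 rising and 4 falling, beside 21.4% and 21.5% of all genes tested. Myc and Etv5 rose by 1.06 and 0.58 (edgeR adjusted p = 1.35e-05 and 5.47e-05), whereas Fos fell by 3.00 (adjusted p = 2.63e-08). Hk2, which encodes hexokinase 2, had a log2 fold change of 0.24 and did not pass (adjusted p = 0.387). Of 6 tested genes for the release and the intracellular partners of Fgf1 and Fgf2, 1 rose and 2 fell, beside the same shares of all genes. The 2 that fell were Tec and Fibp, by 0.62 and 0.37 (edgeR adjusted p = 0.000889 and 0.000847). No gene of these lists passed the test at 10 ng/mL against unstimulated cells. Against 10 ng/mL cells, Dusp6, Myc and Nras again rose at 100 ng/mL, by 0.79, 0.90 and 0.29 on the log2 scale, and Sdc4, Hs3st1, Hs6st2, Fgfrl1, Fos and Tec fell, with log2 fold changes of -2.02, -2.40, -1.83, -1.19, -2.66 and -0.66 (edgeR adjusted p of 0.000741 or less for all 9).

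**Figure D3:**
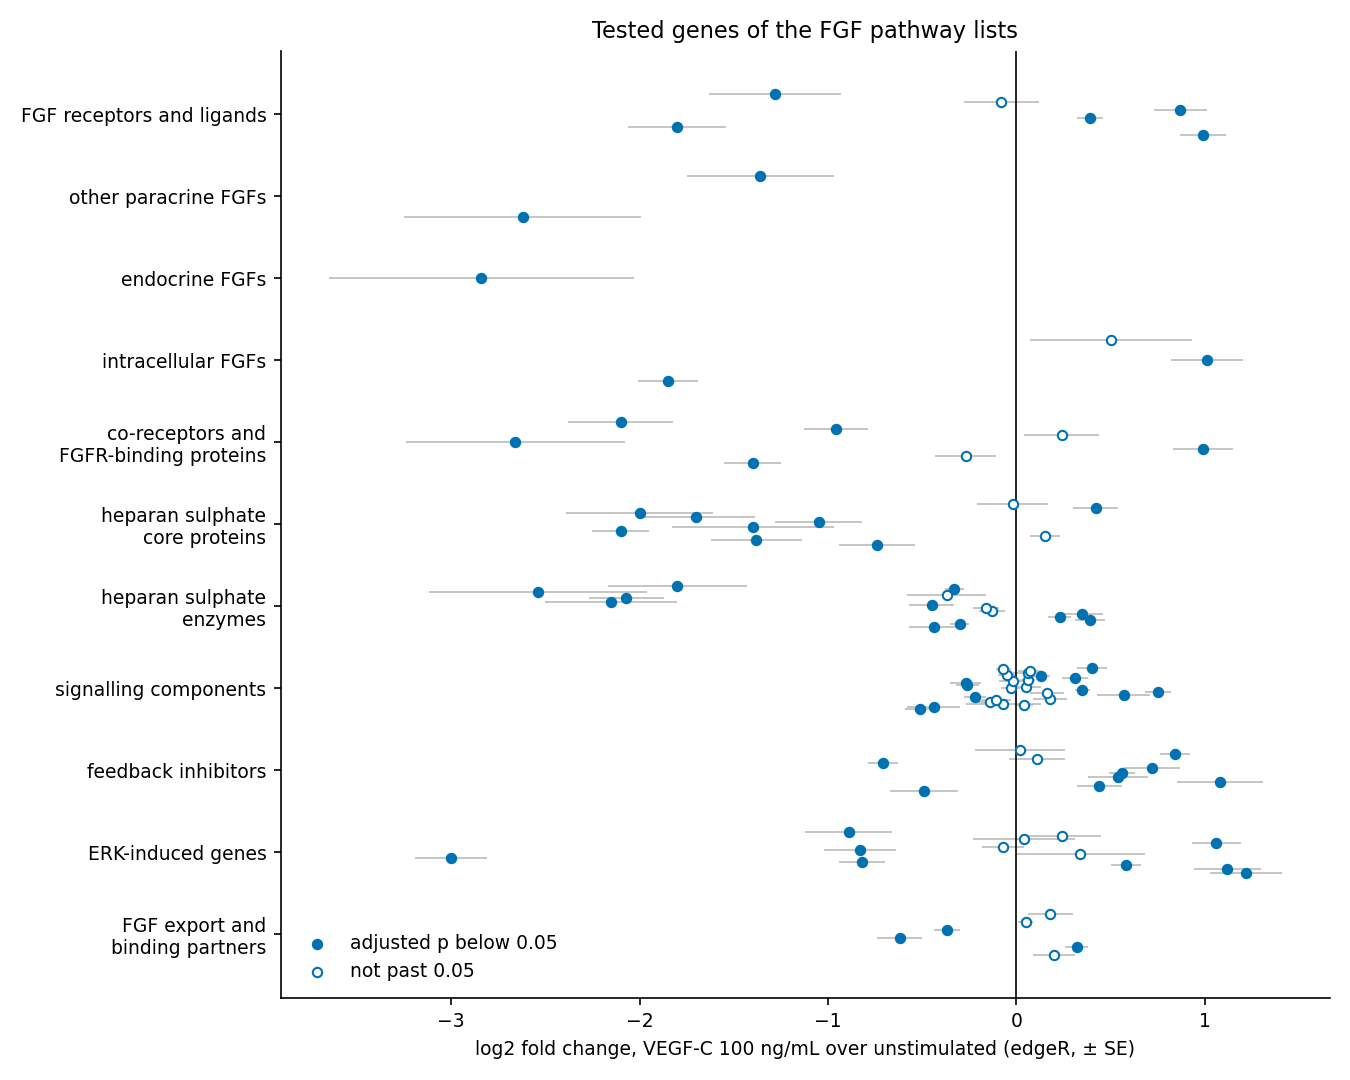
Log2 fold change ± SE (edgeR, 100 ng/mL over unstimulated, 5 libraries each) of every tested gene in the FGF pathway lists, 1 row per list, with filled points for genes past an adjusted p of 0.05. Of the core proteins of heparan sulfate 7 of 10 lie to the left as filled points, beside 21.5% of all genes tested that fell. Of the feedback inhibitors 6 of 10 lie to the right, beside 21.4% of all genes tested that rose.

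Markers of other cell types differed between the same groups. Of 14 tested fibroblast and mural markers, 13 fell and 0 rose at 100 ng/mL against unstimulated cells, beside 21.5% of all genes tested that fell. Their summed abundance over 16 genes was 931 to 1368 CPM in the 100 ng/mL libraries and 3192 to 4669 CPM in the unstimulated ones. Thy1 alone measured 657.5 to 802.3 CPM in the 100 ng/mL libraries and 912.7 to 1156 CPM in the unstimulated ones. It thus made up most of the sum at 100 ng/mL. Dcn, a fibroblast proteoglycan, fell by 4.62 and the smooth muscle actin gene Acta2 by 4.0 on the log2 scale (edgeR adjusted p = 6.87e-07 and 4.85e-06), and Thy1 by 0.53 (adjusted p = 0.000174). Library B at 100 ng/mL had the highest Acta2 level of its group, 47.9 CPM, and leaving it out gave a log2 fold change of -4.71. Of the 13 calls, that of Cspg4, a pericyte proteoglycan, was lost in 15 of 27 alternatives and that of Des, a muscle intermediate filament gene, in 10 of 27 (adjusted p up to 0.137 and 0.0985). Lum and Ccl19, markers of fibroblasts and of fibroblastic reticular cells, averaged at most 0.0964 CPM in any group.

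Leukocyte, epithelial and LEC markers were examined in the same way. Of 8 tested leukocyte markers 6 fell, Lyz2 and Laptm5 by 1.92 and 2.04, and the sum over 10 genes was 23.4 to 42.7 CPM at 100 ng/mL and 49.8 to 132.0 CPM in unstimulated libraries. Of 7 tested epithelial markers 5 fell, among them Krt18 by 2.38, and 1 rose, Krt5 by 0.96. The epithelial sum over 9 genes was 30.9 to 60.9 CPM at 100 ng/mL and 83.9 to 135.8 CPM in unstimulated libraries. Krt18 averaged 78.6 CPM of a mean sum of 103.3 CPM in unstimulated cells. Krt5 averaged 22.1 CPM of a mean sum of 40.9 CPM at 100 ng/mL. The defining genes Epcam and Esrp1 averaged at most 0.0715 CPM in any group. Of 8 tested LEC markers 6 rose, Flt4 by 1.36, Cdh5 by 0.67 and the sorting marker Pecam1 (CD31) by 0.19. The Pecam1 call (edgeR adjusted p = 0.0343) was lost in 12 of 27 alternatives.

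Within groups, the levels of Fgf2 and Fgfr2 followed such sums in some libraries and not in others. Within the 100 ng/mL group, library B had both the highest Fgf2 level, 5.88 CPM, and the highest fibroblast and mural sum, 1368 CPM, against 931 to 1061 CPM in the other 4. Among unstimulated libraries, C and A had the highest sums (4585 and 4669 CPM) and the highest Fgf2 levels (13.9 and 8.97 CPM), and D had the lowest of both (3192 and 4.64 CPM), but E combined a sum of 3262 CPM with Fgf2 at 8.70 CPM. Among 10 ng/mL libraries, B and E had the highest of both (4424 and 4281 CPM, with Fgf2 at 12.6 and 9.38 CPM) and C the lowest of both (2666 and 4.51 CPM), while D had a sum of 2685 CPM and Fgf2 at 8.18 CPM. For Fgfr2, unstimulated D and E had the highest epithelial sums (135.8 and 118.0 CPM) and the highest Fgfr2 levels (4.02 and 3.04 CPM), but C had the lowest sum (83.9 CPM) and an Fgfr2 level of 2.57 CPM, above those of A and B (1.98 and 1.70 CPM). Among 10 ng/mL libraries C was highest in both (90.6 and 2.78 CPM), whereas B had the second lowest sum (70.4 CPM) and the second highest Fgfr2 level (2.28 CPM). At 100 ng/mL the highest epithelial sum was in library B, 60.9 CPM, and its Fgfr2 level of 0.835 CPM was not the highest of that group. The part of these cell types in the changes of the FGF genes and the pathway genes was not tested. Unstimulated A, C, D and E deviated together with 10 ng/mL E, B, C and D, in turn (correlations of 0.487 to 0.786). The patterns within the unstimulated and the 10 ng/mL group may therefore not be independent of each other.

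**Figure D4:**
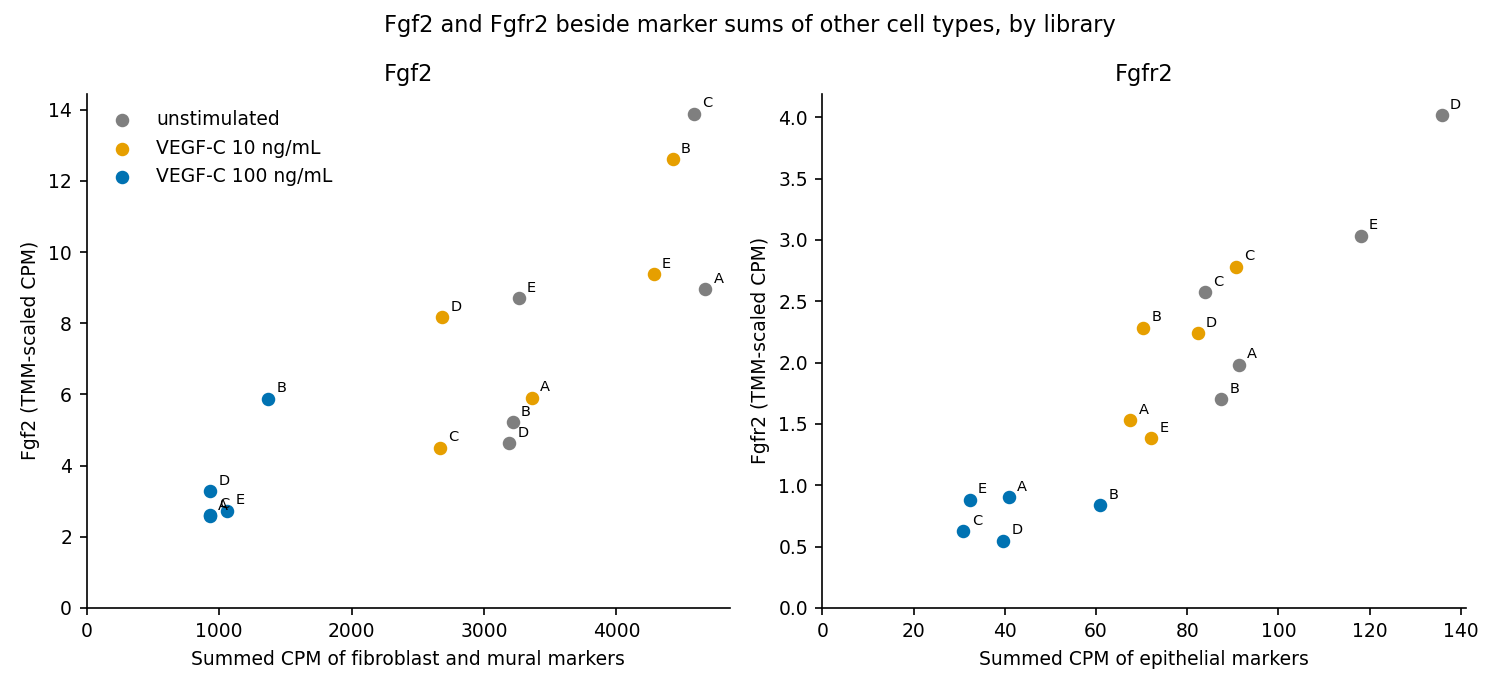
Fgf2 against the summed CPM of 16 fibroblast and mural markers (left) and Fgfr2 against that of 9 epithelial markers (right), with 1 point per library, letters for the libraries and colours for the dose of VEGF-C. The 100 ng/mL libraries lie at the lower left of both panels, and library B of that group has the highest marker sums among them, at 1368 and 60.9 CPM.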

How the data were processed

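Per the file headers, the authors deposited estimated counts and RPKM values for each gene in each library. FastQC, Bowtie2, limma, GRCm38 and mm10 are named, without roles, per the submitters' processing notes. The counter, its strand setting and its handling of multi-mapped reads were not stated, so overlapping genes are uncertain. Estimated counts were rounded, filtered (filterByExpr), scaled (TMM) and fitted with group as the only term over all 15 libraries in edgeR 4.0.16 (R 4.3.3), with Benjamini-Hochberg adjustment over 17650 genes and a threshold of 0.05. The fit was tested on simulated data. Nothing in the labels says that the libraries are separate cultures, and p-values therefore measure the spread between libraries alone, which may be technical. Every pair of libraries within a group differed by more than counting noise (smallest chi-square per degree of freedom 8.64). Replicate letters did not pair the libraries, but some libraries of different letters deviated together, and the fit did not pair them. The FGF genes, the gene lists and the rule for named genes (the 3 smallest p-values per list at 100 ng/mL against unstimulated, 2 in other comparisons, the 2 most abundant markers, and the 3 nearest patterns per FGF gene with a prior count of 2 and a mean of at least 1 CPM) were chosen with earlier results of these data known. Hk2, Kl, Klb, Ccl21a, Mmrn1, Lum, Ccl19, Epcam and Esrp1 were named outside this rule, and 2 genes that it names are not reported here. Alternatives used DESeq2 1.42.0, limma 3.58.1 and sva 3.50.0. Promoter windows and motif searches used RefSeq sequences, and coordinates are those of GENCODE M21.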

Additional observations from a re-analysis of the deposited data

Results flagged for a closer look

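The level of Fgf2 in library B of the 100 ng/mL group, 5.88 CPM, lay far from the other 4 libraries of that group, which measured 2.59 to 3.28 CPM. Its gap to the nearest of them was 0.788 of the range of the group, above the critical value of 0.71 for 5 libraries. It was the only such library among the 18 combinations of gene and group examined, and chance alone marks about 1 in 20 groups. The same library had the highest fibroblast and mural marker sum of its group, 1368 CPM, and without it the log2 fold change of Fgf2 at 100 ng/mL against unstimulated cells was -1.57 (edgeR adjusted p = 0.00203).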

How the results depend on the processing

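Over 27 alternatives per comparison, 5, 0 and 5 FGF genes passed for 100 ng/mL against unstimulated, 10 ng/mL against unstimulated and 100 ng/mL against 10 ng/mL, and 475 of 486 log2 fold changes kept their direction and their side of the threshold. The other 11 turned sign, all for genes that did not pass, and the cause was not tested. Leaving out 1 library gave -0.25 to 0.03 for Fgf1 at 100 ng/mL against unstimulated, -0.25 to 0.23 for Fgf2 at 10 ng/mL against unstimulated and -0.13 to 0.15 for Fgf1 at 100 against 10 ng/mL. With 3 surrogate variables, added after seeing the data, Fgf2 was at 0.13 at 10 ng/mL against unstimulated and Fgf1 at -0.02 at 100 against 10 ng/mL. For the last of these, limma-voom gave -0.0041 and leaving out the 3 libraries that stood apart, also added after seeing the data, gave -0.06. Genes called at 10 ng/mL against unstimulated numbered 10 with the DESeq2 Wald test, 28 with surrogate variables and 0 to 1 on leaving out 1 library, against 0. The order of the 6 RPKM levels was the same with medians and with CPM per kilobase. Limma on log2(RPKM + 1), which shrinks low genes by construction, gave -0.19 for Fgfr2 and -0.42 for Fgf2 at 100 ng/mL against unstimulated. Of the 59 pathway genes called at 100 ng/mL against unstimulated, 55 were called in every alternative that gave an adjusted p, and of 61 called against 10 ng/mL, 51. Of the 31 cell type markers called at 100 ng/mL against unstimulated, 26 were called in every alternative that gave an adjusted p, and the exceptions were Cspg4, Des, Pecam1, Coro1a and Ptprc.

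The replicate letters did not pair the libraries, since 2 of 15 same-letter pairs of libraries deviated together at a correlation over 0.1 (range -0.342 to 0.132). Some libraries of different letters did deviate together. Unstimulated A to E correlated at 0.487, 0.562, 0.655, 0.675 and 0.786 with 10 ng/mL E, A, B, C and D, in turn. Library B at 100 ng/mL correlated at 0.559 with unstimulated E and at 0.428 with 10 ng/mL D. The source of these matches was not stated, and no fit paired the libraries by them. With the letter as a replicate block, 7069, 0 and 6582 genes were called in the 3 comparisons, against 7571, 0 and 7157 without it, and the log2 fold changes at 100 ng/mL against unstimulated were 0.97 for Fgfr1, -1.75 for Fgfr2, 0.38 for Fgfr3, 0.85 for Fgfr4 and -1.34 for Fgf2 (edgeR adjusted p = 0.0161 or less). Because the letters did not match the libraries that deviated together, this block cannot show what pairing would change. The low counts of Fgfr2, 15.4 to 30.6 per library at 100 ng/mL, limit the precision of its level there.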
